A study of Sus scrofa with 24 samples.

Results

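The genes described here encode 10 proteins that carry calcium into cells, or set that entry, when a membrane is stretched, depolarised or short of stored calcium: PIEZO1, PIEZO2, TRPV4, TRPM7, TRPC1, KCNK2, CACNA1C, CACNA2D1, ORAI1 and STIM1. They were found in the deposited gene counts by symbol, with the condition that a gene had 10 or more reads in any library. By this rule 9 of the 10 were found among the 13653 genes that met the same condition, out of 25880 genes in the table. The row of PIEZO2 (ENSSSCG00000034765) carries no symbol in the deposited table and was recognised by its identifier in a reference list of gene names, so PIEZO2 is described beside the other 9 and left out of the counts of members.

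The study asked how cyclic stretch changes the response of knee meniscus cells to the inflammatory cytokine IL-1. Cells came from the medial menisci of skeletally mature female pigs and were kept apart as inner zone cells, from the inner rim, and outer zone cells, from the rest of the tissue. Cells of at least 3 menisci were pooled, expanded for 1 passage in serum and seeded at 250000 cells per well on flexible membranes coated with collagen type I. About 40 h later, fresh medium without or with recombinant porcine IL-1α at 0.1 ng/mL was added, and the cells were left at rest or stretched with 5% equibiaxial strain at 0.5 Hz for 4 h, after which RNA was taken at once. Each zone therefore has 4 groups of 3 libraries, called untreated, stretch, IL-1, and stretch and IL-1, which makes 24 libraries in 8 groups. No group carries a genetic change. All groups share the passage, the membrane and the serum, so a zone difference is one between cultured cells, and replicates are wells of pooled cells, so that p-values reflect no more than the variation from well to well. The sample titles also carry a number that changes together with the treatment and whose meaning is not given, so that number and the treatment cannot be told apart. A further number in the titles, used here as the replicate number, is never shared between the zones, and its meaning is not given either.

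Library totals ran from 25377054 to 35284474 reads in genes. The RNA was rich in fibroblast-like markers, with a summed level of 92800 to 120500 CPM over 15 genes, where CPM is the count scaled to a library of 1000000 reads. Chondrocyte-like markers summed to between 2327 and 3018 CPM in inner zone libraries and to between 926.2 and 1237 CPM in outer zone libraries. Most of this was COL11A1, with 938278 reads over all 24 libraries, then ACAN with 234513. COL2A1 had means of 39.8 and 5.56 CPM in untreated inner and outer zone cells, while SOX9 had 18.6 and 20.1 CPM and CHAD 26.5 and 27.2 CPM. Leukocyte markers summed to at most 43.64 CPM, most of it CD14 with 18441 reads over all 24 libraries, while PTPRC had 1 read and MS4A1 had 0. CD14 had a mean of 16.1 CPM in untreated inner zone cells and 25.5 CPM with IL-1, and of 21.4 and 39.96 CPM in outer zone cells. Endothelial markers summed to at most 62.33 CPM, most of it ERG with 33318 reads, then PECAM1 with 5430, while CDH5 had 19 reads and VWF had 35.

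As background, PIEZO1 and PIEZO2 form channels that open when the membrane is put under tension. TRPV4 is a cation channel opened by osmotic swelling and mechanical load and is well known in chondrocytes, TRPM7 joins a channel for calcium and magnesium to a kinase, and TRPC1 forms cation channels in mixed assemblies with other TRPC proteins. KCNK2, also called TREK-1, is a stretch-sensitive potassium channel that holds the membrane potential negative. CACNA1C is the pore of the L-type voltage-gated calcium channel and CACNA2D1 its α2δ-1 subunit, which brings such channels to the surface. STIM1 senses calcium in the endoplasmic reticulum and opens ORAI1, the pore of store-operated calcium entry, when the store is empty.

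To show the sequence in front of the members on which the results turn, the 250 bases before the annotated start are printed for PIEZO1 and ORAI1, which rose with IL-1 in both zones, for TRPV4, which fell with IL-1 in both zones, and for CACNA2D1, which differed between the zones. They were read from the RefSeq annotation of Sscrofa11.1, the assembly that the authors used, although their gene models came from another annotation. Each is written 5′ to 3′ on the strand of its gene, in lower case, with capitals where GGG is followed, after any 5 bases, by CC, a loose form of the NF-κB motif, on either strand. The windows lie on chr6:914230-914479 (+) for PIEZO1, chr14:31028009-31028258 (-) for ORAI1, chr14:41125569-41125818 (+) for TRPV4 and chr9:97780807-97781056 (+) for CACNA2D1.
PIEZO1: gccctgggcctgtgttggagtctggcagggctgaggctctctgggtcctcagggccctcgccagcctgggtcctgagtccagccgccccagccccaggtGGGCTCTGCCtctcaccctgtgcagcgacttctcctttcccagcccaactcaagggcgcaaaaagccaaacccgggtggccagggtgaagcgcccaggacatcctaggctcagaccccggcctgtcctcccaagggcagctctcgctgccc
ORAI1: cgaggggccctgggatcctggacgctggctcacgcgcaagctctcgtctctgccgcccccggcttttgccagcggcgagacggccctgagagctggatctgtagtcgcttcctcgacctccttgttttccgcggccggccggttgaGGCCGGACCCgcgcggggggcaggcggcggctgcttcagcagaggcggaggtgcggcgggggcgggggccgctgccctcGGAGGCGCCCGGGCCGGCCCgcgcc
TRPV4: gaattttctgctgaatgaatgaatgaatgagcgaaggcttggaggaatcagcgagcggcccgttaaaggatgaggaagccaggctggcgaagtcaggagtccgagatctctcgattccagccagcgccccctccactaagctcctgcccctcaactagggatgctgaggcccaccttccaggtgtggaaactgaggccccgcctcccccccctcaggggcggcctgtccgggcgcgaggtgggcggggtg
CACNA2D1: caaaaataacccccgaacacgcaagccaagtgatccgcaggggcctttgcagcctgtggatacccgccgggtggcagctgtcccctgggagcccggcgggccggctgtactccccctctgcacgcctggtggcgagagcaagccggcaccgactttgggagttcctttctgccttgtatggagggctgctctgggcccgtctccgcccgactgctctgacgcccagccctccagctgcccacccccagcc
In the 300 bases from 250 before to 50 after the start, this NF-κB pattern was present in 9 of the 10 genes, all but KCNK2, against 65.6% of 19556 pig promoters, and in TRPV4 the matches run across the start, so that the printed bases hold only their first part, while in CACNA2D1 the match lies after the start. Neither is in capitals. The AP-1 letters TGANTCA were in 0 of the 10 (6.07% of promoters). The CRE letters TGACG was in TRPC1, KCNK2 and CACNA2D1 (24.3% of promoters), the TEAD letters GGAATG in KCNK2 (11.8%), the NFAT letters GGAAA in 6 genes (59.5%), and the SRF pattern, CC followed after any 6 bases by GG, in all 10 (82.8%). The fixed letters of the NF-κB pattern are all G or C. In the 250 bases before the start, G and C made up 40.8% in KCNK2 and from 59.6% to 83.6% in the other 9 genes. The median over all promoters was 58.7%, in the window of 300 bases. The part of this in the matches was not tested. All motifs were searched on both strands, matches can overlap, and such short words are common, so a match is a description of the letters and not a binding site.

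Among the members, PIEZO1 and ORAI1 had the highest levels once length was taken into account. The level is given as CPM per kilobase of exon, with exon lengths from RefSeq. In untreated inner zone cells PIEZO1 stood at 19.7 ± 0.278 CPM per kilobase (SD, n = 3), ORAI1 at 15.4 ± 0.739, TRPM7 at 9 ± 0.564 and CACNA1C at 5.08 ± 0.244. STIM1 followed at 3.05 ± 0.131, TRPV4 at 1.81 ± 0.143, CACNA2D1 at 1.08 ± 0.0431, KCNK2 at 0.674 ± 0.0763, PIEZO2 at 0.484 ± 0.0387 and TRPC1 at 0.0929 ± 0.0187. No neighbours in this order had overlapping libraries. The same first 4 genes led in every group, with TRPM7 and CACNA1C overlapping in outer zone cells under stretch and IL-1. In untreated outer zone cells CACNA2D1 moved above STIM1, at 3.78 ± 0.118 against 3.44 ± 0.140 CPM per kilobase, and the libraries of PIEZO2 and KCNK2 overlapped. The ORAI1 model in RefSeq has only 1032 bases of exon in 1 transcript and that of TRPC1 has 16419, so the order depends on those models.

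**Figure D1:**
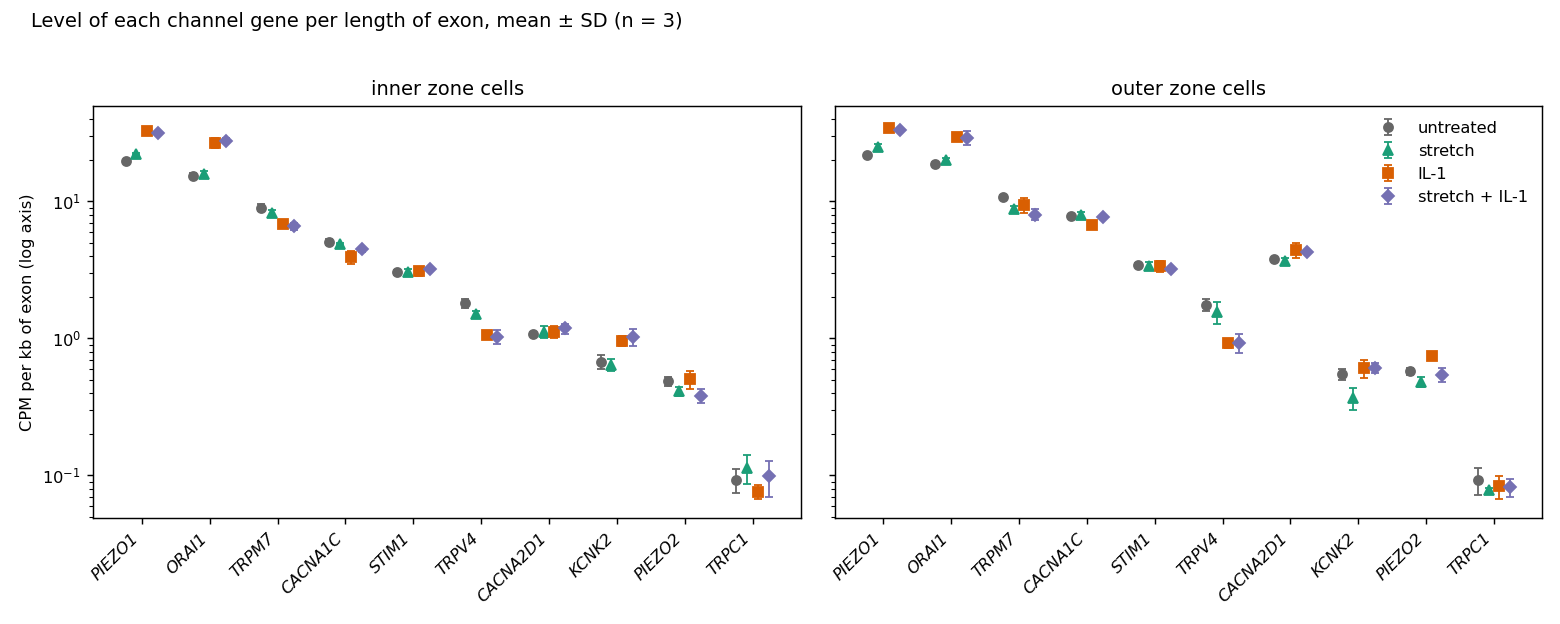
Level of each member in CPM per kilobase of exon on a log axis, for inner zone cells (left) and outer zone cells (right), with one marker per treatment and error bars of 1 SD over 3 libraries. PIEZO1 and ORAI1 stand highest and TRPC1 lowest in both zones, and CACNA2D1 stands higher in the outer zone.

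IL-1 treatment of unstretched cells changed most members, in both directions. In inner zone cells PIEZO1, ORAI1 and KCNK2 rose and TRPV4, TRPM7 and CACNA1C fell, and in outer zone cells PIEZO1, ORAI1 and CACNA2D1 rose and the same 3 genes fell. A gene was taken to have risen or fallen when edgeR's quasi-likelihood test with Benjamini-Hochberg adjustment over all 13653 genes gave an adjusted p under 0.05. That makes 6 of 9 members in each zone, against 65.4% of all tested genes in inner and 64.6% in outer zone cells, so the share of members is near that of all genes. The 9 members had a median log2 fold change of 0.01 (inner) and -0.04 (outer), beside -0.03 and -0.04 over all genes. None of the 9 passed the study's bound of a 2-fold change in either zone, which 15.7% and 15.4% of all genes passed. In bulk RNA, fewer cells of a kind and less RNA per cell cannot be told apart.

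The Piezo channels differed from each other in level and in response. PIEZO1 (ENSSSCG00000035230, chr6:914480-967113) was at 172, 167 and 169.6 CPM in the 3 untreated inner zone libraries and at 287, 290.2 and 264 CPM with IL-1. Outer zone libraries had 186, 190.2 and 187 CPM untreated and 314, 292 and 280.0 CPM with IL-1. The libraries with IL-1 lay above all untreated ones in both zones. PIEZO1 rose 1.65-fold in inner (log2 0.72 ± 0.04 SE, edgeR adjusted p = 5.66e-17) and 1.57-fold in outer zone cells (log2 0.65 ± 0.04, adjusted p = 8.64e-16). A difference of the rise between the zones was not called, at 0.07 on the log2 scale and a 95% interval from -0.05 to 0.19 (edgeR adjusted p = 0.532). Of the exon bases of PIEZO1, 1225 (14.2%) lie under CTU2 on the opposite strand, and since it is not stated whether counting used the strand, reads from there cannot be assigned with certainty.

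PIEZO2 had between 90 and 205 reads per library, against between 5302 and 8871 for PIEZO1. In outer zone cells it was at 5.05, 5.53 and 5.73 CPM untreated and at 7.54, 6.62 and 6.96 CPM with IL-1, without overlap, a rise of 1.29-fold (log2 0.37 ± 0.11, edgeR adjusted p = 0.00364). With upper-quartile scaling this rise was 0.19 on the log2 scale and was no longer called (edgeR adjusted p = 0.119). In inner zone cells its values were 4.25, 4.55 and 4.98 CPM untreated and 5.20, 5.21 and 3.96 CPM with IL-1, and these overlapped (log2 0.04 ± 0.12, edgeR adjusted p = 0.762). The difference between the zones in the IL-1 effect was -0.33 with a 95% interval from -0.66 to 0.01 and was not called (edgeR adjusted p = 0.24).

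Of the TRP channels among the members, TRPV4 changed most with IL-1. It was at 9.42, 8.45 and 9.88 CPM in untreated inner zone libraries and at 5.52, 5.25 and 5.38 CPM with IL-1. Outer zone libraries had 7.89, 9.50 and 9.42 CPM untreated and 4.51, 5.14 and 4.51 CPM with IL-1. Every library with IL-1 lay below every untreated library of its zone. TRPV4 was 1.72-fold lower with IL-1 in inner (log2 -0.78 ± 0.12, edgeR adjusted p = 4.22e-07) and 1.90-fold lower in outer zone cells (log2 -0.92 ± 0.12, adjusted p = 2.59e-08).

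TRPM7 was at 62.99, 67.5 and 71.4 CPM in untreated inner zone libraries and at 51.3, 49.5 and 53.7 CPM with IL-1, without overlap, and fell by 0.38 on the log2 scale (SE 0.08, edgeR adjusted p = 7.69e-05). In outer zone cells it was at 83.5, 80.4 and 78.5 CPM untreated and at 63.5, 66.8 and 80.1 CPM with IL-1. IL-1 replicate 6 lay within the untreated range, and the fall of 0.20 (SE 0.07, edgeR adjusted p = 0.0179) was not stable. It was lost without outer zone IL-1 replicate 4 (-0.14), IL-1 replicate 5 (-0.17) or untreated replicate 4 (-0.18), and with no filter on low counts, with only the libraries of the zone, or with a replicate block (-0.18 each), while without IL-1 replicate 6 it was -0.31. TRPC1, with 27 to 82 reads per library, ran from 1.06 to 2.25 CPM over all libraries. Its log2 fold change with IL-1 was -0.30 (inner) and -0.13 (outer), with 95% intervals from -0.76 to 0.17 and from -0.59 to 0.33, and it was not called in either.

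KCNK2, the potassium channel of the set, was at 4.42, 3.69 and 3.62 CPM in untreated inner zone libraries and at 5.83, 5.04 and 5.76 CPM with IL-1. These groups did not overlap, and the rise was 1.43-fold (log2 0.51 ± 0.13, edgeR adjusted p = 0.0007). In outer zone cells its values were 2.88, 3.22 and 3.45 CPM untreated and 3.56, 2.96 and 3.97 CPM with IL-1, which overlapped (log2 0.14 ± 0.14, edgeR adjusted p = 0.407). Whether the zones differ in this effect was tested directly, and the difference of 0.37 had a 95% interval from -0.02 to 0.77 and was not called (edgeR adjusted p = 0.258).

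CACNA1C, the L-type pore, fell in both zones. It was at 37.1, 37.0 and 40.2 CPM in untreated inner zone libraries and at 30.1, 32.2 and 25.8 CPM with IL-1. Outer zone libraries had 59.5, 58.5 and 58.6 CPM untreated and 52.0, 49.5 and 51.0 CPM with IL-1. Neither pair of groups overlapped, and the falls were 0.38 on the log2 scale in inner (SE 0.06, edgeR adjusted p = 3.57e-07) and 0.21 in outer zone cells (SE 0.05, adjusted p = 0.000651). Of 11 mural and smooth muscle markers tested, IL-1 lowered 9 and raised 1 (inner) or lowered 7 and raised 2 (outer), where 65.4% and 64.6% of all genes changed. The markers that rose were MYH11, a defining marker of smooth muscle, at 2.07 CPM untreated and 13.2 CPM with IL-1 (inner) or 3.77 and 29.2 CPM (outer), and NOTCH3 in outer zone cells only, at 13.3 and 15.1 CPM. The summed level of the list, to which ACTA2 and TAGLN gave the most reads, went from between 3739 and 4059 CPM to between 3183 and 3267 CPM in inner zone cells, and from between 3014 and 3054 CPM to between 2065 and 2251 CPM in outer zone cells, and the part of such cells in the fall of CACNA1C was not tested.

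CACNA2D1, the auxiliary subunit, was at 37.1, 36.1 and 34.9 CPM in untreated outer zone libraries and at 40.3, 38.4 and 48.1 CPM with IL-1, a rise of 1.18-fold (log2 0.23 ± 0.07, edgeR adjusted p = 0.0035). Without the highest library, outer zone IL-1 replicate 6, the rise was 0.13 and no longer called (edgeR adjusted p = 0.102), and with upper-quartile scaling it was 0.05. In inner zone cells the gene stayed between 9.71 and 11.8 CPM in the untreated and IL-1 libraries together, and its log2 fold change of 0.06 had a 95% interval from -0.12 to 0.25.

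Of the store-operated entry pair, ORAI1 rose with IL-1 and STIM1 was not called. ORAI1 was at 16.3, 15.1 and 16.4 CPM in untreated inner zone libraries and at 28.7, 29.1 and 25.1 CPM with IL-1. Outer zone libraries had 18.9, 19.1 and 20.1 CPM untreated and 32.2, 30.5 and 29.3 CPM with IL-1, so that in both zones all libraries with IL-1 lay above the untreated ones. The rise was 1.73-fold in inner (log2 0.79 ± 0.07, edgeR adjusted p = 7.53e-12) and 1.58-fold in outer zone cells (log2 0.66 ± 0.07, adjusted p = 2.6e-10). STIM1, its sensor, was at 25.7, 27.7 and 25.8 CPM untreated and 26.5, 29.0 and 24.7 CPM with IL-1 in inner zone cells, with a log2 fold change of 0.01 and a 95% interval from -0.12 to 0.15. In outer zone cells it was at 28.5, 30.3 and 30.8 CPM untreated and at 32.0, 28.8 and 26.6 CPM with IL-1 (log2 -0.04, 95% interval from -0.17 to 0.10). STIM1 depends on scaling: upper-quartile factors shift the median of all genes with IL-1 to -0.20 (inner) and -0.22 (outer), which puts STIM1 at -0.17 and -0.21, both called lower but near that shift.

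**Figure D2:**
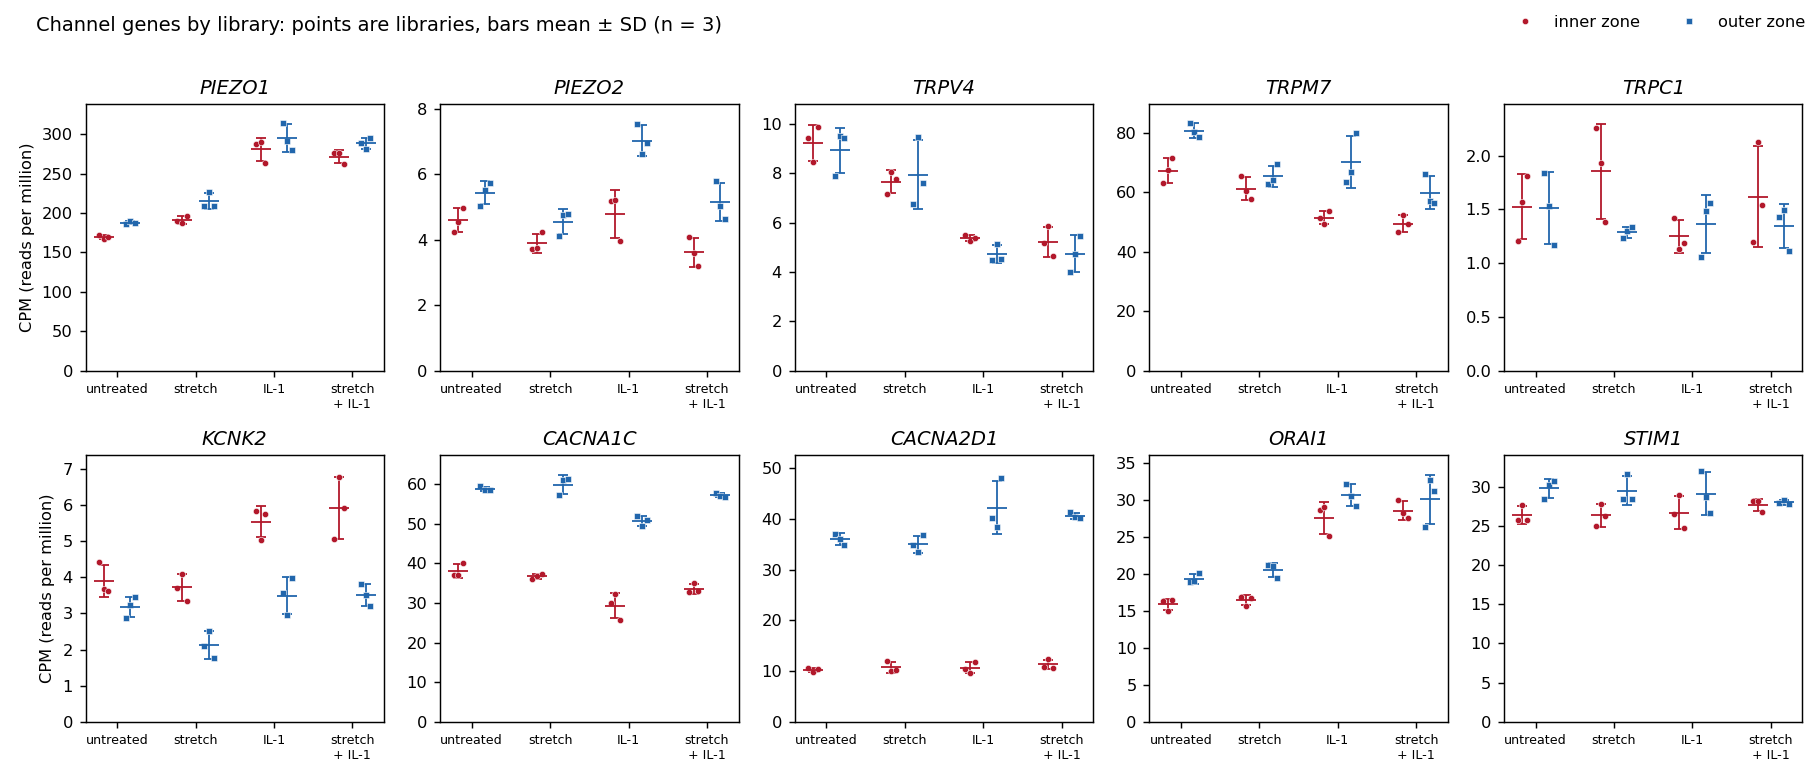
CPM of the 10 members in each library, by treatment, with inner zone libraries as circles and outer zone libraries as squares and with bars for the mean and 1 SD of 3 libraries, on axes that start at 0. PIEZO1 and ORAI1 stand higher and TRPV4 lower in the groups with IL-1, and CACNA2D1 and CACNA1C stand higher in outer zone cells in every treatment.

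Stretch alone moved few members, and by little. In inner zone cells 1 of 9 members changed, against 19.9% of all genes, and in outer zone cells 3 of 9, against 21.3%. PIEZO1 rose in both zones, and TRPM7 and KCNK2 fell in outer zone cells. Past 2-fold were 0 of 9 in each zone, against 1.26% and 1.36% of all genes. Their median log2 fold change was 0.00 (inner) and -0.04 (outer), beside 0.00 and 0.01 over all genes.

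PIEZO1 was at 189, 187 and 196 CPM in stretched inner zone libraries and at 209, 227 and 209 CPM in stretched outer zone libraries, above all untreated libraries of the same zone. The rise was 1.13-fold in inner (log2 0.17 ± 0.04, edgeR adjusted p = 0.00291) and 1.15-fold in outer zone cells (log2 0.19 ± 0.04, adjusted p = 0.000666). TRPM7 was at 62.8, 64.2 and 69.4 CPM in stretched outer zone libraries, below all 3 untreated ones, and fell by 0.30 (SE 0.07, edgeR adjusted p = 0.00334). In inner zone cells TRPM7 was at 65.4, 60.3 and 57.9 CPM with stretch, within reach of the untreated libraries (log2 -0.14, 95% interval from -0.29 to 0.02).

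KCNK2 was at 2.09, 2.53 and 1.77 CPM in stretched outer zone libraries, below all untreated ones, and was 1.51-fold lower (log2 -0.59 ± 0.15, edgeR adjusted p = 0.00398). In inner zone cells it was at 3.71, 4.10 and 3.36 CPM with stretch (log2 -0.07, 95% interval from -0.33 to 0.20). The zone difference in the stretch effect was 0.52 and was not called over all genes (edgeR adjusted p = 0.447), where 0.366% of genes were. TRPV4 was at 7.15, 8.05 and 7.78 CPM in stretched inner zone libraries, below the 3 untreated ones, yet was not called (log2 -0.27 ± 0.11, edgeR adjusted p = 0.0673). It passed with no filter on low counts (adjusted p = 0.0486), with only the libraries of the zone (0.0351) and with a replicate block (0.0403), and in outer zone cells without stretch replicate 5 (log2 -0.31, edgeR adjusted p = 0.0419). ORAI1, STIM1, CACNA1C and CACNA2D1 had log2 fold changes between -0.05 and 0.09 with stretch alone, none called.

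In the presence of IL-1, no effect of stretch was called for PIEZO1, ORAI1 or TRPV4, the members that changed most with IL-1. PIEZO1 was at 276, 276 and 262 CPM in inner zone libraries with stretch and IL-1 and at 288, 281 and 295 CPM in outer zone ones, overlapping those with IL-1 alone. Its log2 fold change was -0.05 in inner (95% interval from -0.13 to 0.04) and -0.03 in outer zone cells (from -0.12 to 0.05). ORAI1 was at 30.0, 28.2 and 27.6 CPM in inner and at 26.4, 32.8 and 31.3 CPM in outer zone libraries with both, with log2 fold changes of 0.05 (95% interval from -0.09 to 0.19) and -0.02 (from -0.16 to 0.11). TRPV4 was as low with both as with IL-1 alone, at between 3.99 and 5.85 CPM over the 6 libraries, and its intervals ran from -0.32 to 0.21 and from -0.26 to 0.28.

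In this comparison 1 of 9 members changed in inner zone cells, against 34.7% of all genes, and 2 of 9 in outer zone cells, against 28.2%. CACNA1C was at 32.7, 34.9 and 33.0 CPM in inner zone libraries with stretch and IL-1 and at 57.8, 57.1 and 56.9 CPM in outer zone ones, above those with IL-1 alone in each zone. The rise was 0.20 in inner (SE 0.06, edgeR adjusted p = 0.00769) and 0.17 in outer zone cells (SE 0.05, adjusted p = 0.0125). Without inner zone IL-1 replicate 3 the inner rise was 0.11 and not called (adjusted p = 0.154), and without outer zone IL-1 replicate 5 the outer rise was 0.15 (adjusted p = 0.0585). Of the 11 mural and smooth muscle markers, stretch in IL-1 raised 4 and lowered 1 (inner) or raised 5 and lowered 1 (outer). The marker lowered was MYH11, at 8.01 CPM against 13.2 (inner) and 17.97 CPM against 29.2 (outer). Their summed level was between 3402 and 3528 CPM in inner and between 2389 and 2644 CPM in outer zone libraries with stretch and IL-1, and the part of such cells in the rise of CACNA1C was not tested.

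PIEZO2, beside the 9, was lower with stretch and IL-1 than with IL-1 in both zones. It was at 4.08, 3.61 and 3.19 CPM in inner zone libraries, of which 1 overlapped the IL-1 group, and at 5.80, 5.04 and 4.63 CPM in outer zone ones, with no overlap. It fell by 0.40 in inner (SE 0.13, edgeR adjusted p = 0.0135) and by 0.45 in outer zone cells (SE 0.11, adjusted p = 0.00221). The inner call was lost without IL-1 replicate 1 (-0.34), IL-1 replicate 2 (-0.34) or stretch and IL-1 replicate 3 (-0.31). TRPM7 in outer zone cells, at 66.3, 57.2 and 56.3 CPM with both, fell by 0.23 (SE 0.07, edgeR adjusted p = 0.0226), and its libraries overlapped those with IL-1 alone. That call was lost under upper-quartile scaling, no filter, only the libraries of the zone and a replicate block, and without IL-1 replicate 6 (-0.12), stretch and IL-1 replicate 5 (-0.20) or replicate 6 (-0.18).

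**Figure D3:**
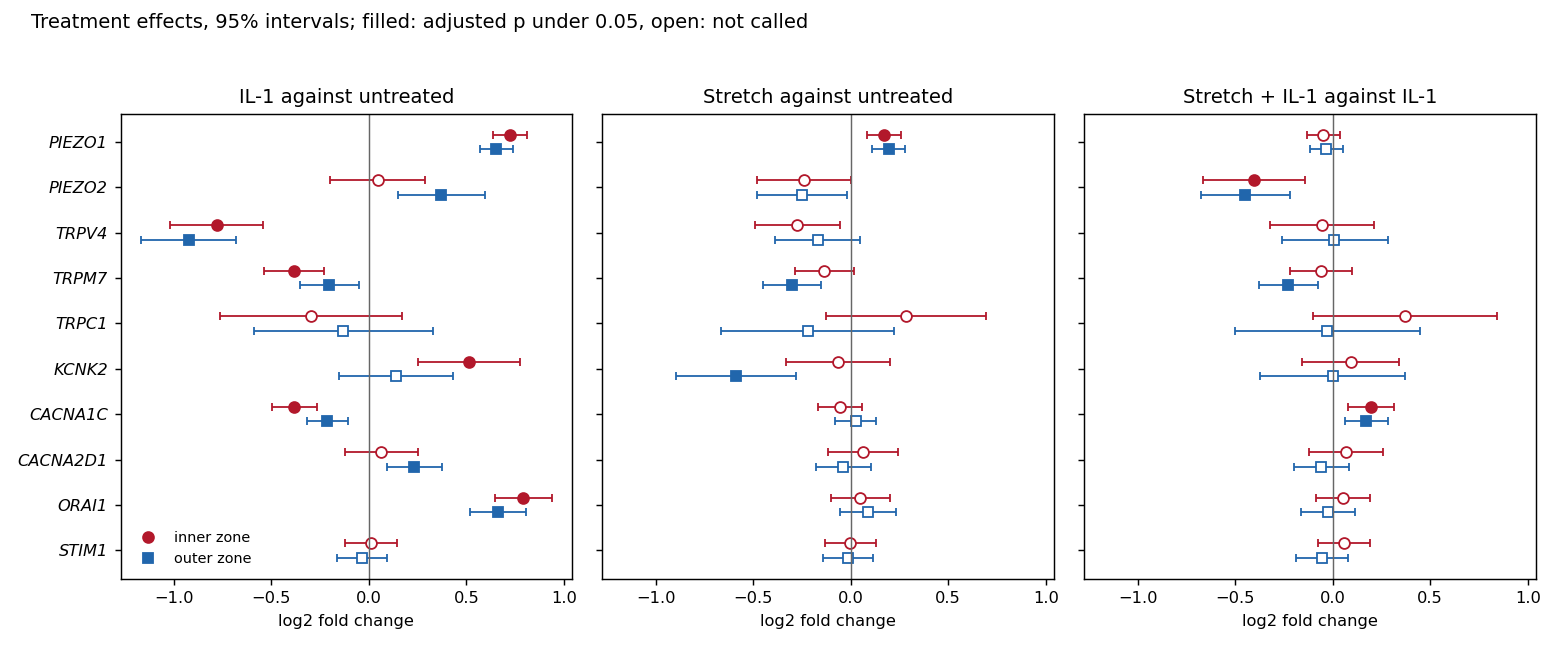
Log2 fold change of each member with its 95% interval for IL-1 against untreated, stretch against untreated, and stretch and IL-1 against IL-1, with inner zone cells as circles and outer zone cells as squares, filled where edgeR's adjusted p was under 0.05. The changes with IL-1 span -0.92 to 0.79 and those with stretch -0.59 to 0.37.

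Whether stretch acts differently with IL-1 was tested as an interaction, the stretch effect with IL-1 minus that without. PIEZO1 had a negative interaction in both zones, of -0.22 in inner (SE 0.06, edgeR adjusted p = 0.00693) and -0.23 in outer zone cells (SE 0.06, adjusted p = 0.00628). CACNA1C had a positive one in inner zone cells of 0.25 (SE 0.08, edgeR adjusted p = 0.0222), which was lost without IL-1 replicate 3 (0.16), stretch and IL-1 replicate 2 (0.22) or untreated replicate 3 (0.21). Members with an interaction numbered 2 of 9 in inner zone cells, against 19.7% of all genes, and 1 of 9 in outer zone cells, against 13.2%. KCNK2 in outer zone cells had the largest interaction of the set, 0.59 (SE 0.21), and was not called (edgeR adjusted p = 0.056). It passed under upper-quartile scaling and without IL-1 replicate 6, stretch replicate 5 or untreated replicate 4.

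The largest zone difference of the set was that of CACNA2D1, in every treatment. CACNA2D1 was at 10.5, 9.80 and 10.5 CPM in untreated inner zone libraries against 37.1, 36.1 and 34.9 CPM in untreated outer zone ones. Over all treatments its inner zone libraries ran from 9.71 to 12.4 CPM and its outer zone libraries from 33.4 to 48.1 CPM, with no overlap. It was 3.5-fold lower in inner zone cells untreated (log2 -1.81 ± 0.08, edgeR adjusted p = 1.6e-19), 3.26-fold with stretch, 3.94-fold with IL-1 and 3.61-fold with both, the only member past 2-fold, a bound that 6.71%, 5.58%, 6.88% and 6.96% of all genes passed in the 4 treatments.

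CACNA1C was lower in inner zone cells in all 4 treatments. Its inner zone libraries ran from 25.8 to 40.2 CPM and its outer zone libraries from 49.5 to 61.4 CPM. The log2 differences were -0.63 untreated (SE 0.05, edgeR adjusted p = 6.24e-12), -0.71 with stretch, -0.80 with IL-1 and -0.77 with both. The mural and smooth muscle markers were divided: of 11 tested, 7 were higher in untreated inner zone cells, ACTA2 and TAGLN among them, and 2 were lower, MYH11 (2.07 against 3.77 CPM) and PDGFRB (416 against 516 CPM). Of all genes, 45% differed between the untreated zones. The part of mural and smooth muscle cells in the zone difference of CACNA1C was not tested. KCNK2 went the other way and was higher in inner zone cells, by 0.81 with stretch (SE 0.15, edgeR adjusted p = 2.06e-05), 0.66 with IL-1 and 0.75 with both, while the untreated difference of 0.29 was not called (adjusted p = 0.0838).

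The remaining zone differences were smaller. PIEZO1 was lower in inner zone cells untreated (log2 -0.15 ± 0.04, edgeR adjusted p = 0.00495) and with stretch (-0.17 ± 0.04, adjusted p = 0.00116), and ORAI1 likewise (-0.28 ± 0.07 and -0.32 ± 0.07). With IL-1 the differences of both were not called, at -0.07 and -0.15, but the zone difference in the IL-1 effect was itself not called for either. Without outer zone IL-1 replicate 6 the differences with IL-1 were called for PIEZO1 (-0.11), ORAI1 (-0.19) and STIM1 (-0.19), as they were without inner zone IL-1 replicate 2 for ORAI1 (-0.19) and STIM1 (-0.19). TRPM7 was lower in inner zone cells untreated (-0.26), with IL-1 (-0.44) and with both (-0.28). PIEZO2 was lower with IL-1 (-0.57 ± 0.12, edgeR adjusted p = 0.00011) and with both (-0.52 ± 0.13, adjusted p = 0.00075). STIM1 was lower by call untreated (-0.18, edgeR adjusted p = 0.024) and with stretch (-0.16, adjusted p = 0.0343). The untreated STIM1 call was lost without inner zone untreated replicate 1 or 3 or outer zone untreated replicate 5 or 6, and with stretch without inner zone replicate 1 or 3 or outer zone replicate 5, where its values were between -0.11 and -0.17. TRPC1 was higher in inner zone cells with stretch (0.53, edgeR adjusted p = 0.0346), a call lost without any one of inner zone stretch replicates 1 (0.36) and 2 (0.51) and outer zone stretch replicates 4, 5 and 6 (0.51 to 0.56).

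Of the 9 members, 6 differed between the zones untreated, 7 with stretch, 4 with IL-1 and 4 with both, against 45%, 44.1%, 46.8% and 48.1% of all genes. With any single library of the stretch groups left out, the 7 became 5 or 6. The zones also differed in markers: chondrocyte-like genes were higher in inner zone cells, 7 of 10 tested in untreated cells, and fibroblast-like genes lower, 10 of 15. The part of such cell make-up in the zone differences of the channels was not tested. In 0 of the 9 members did the effect of IL-1, of stretch or of stretch in IL-1 differ between the zones by edgeR's test, with 0 of 9 called against 9.24%, 0.366% and 2.33% of all genes, and 0 of 9 by the Wald test of DESeq2. At an unadjusted p under 0.05 edgeR had CACNA1C for the IL-1 effect and KCNK2 for the stretch effect, and the former, -0.17, was called without inner zone IL-1 replicate 2 (-0.24, adjusted p = 0.0479).

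**Figure D4:**
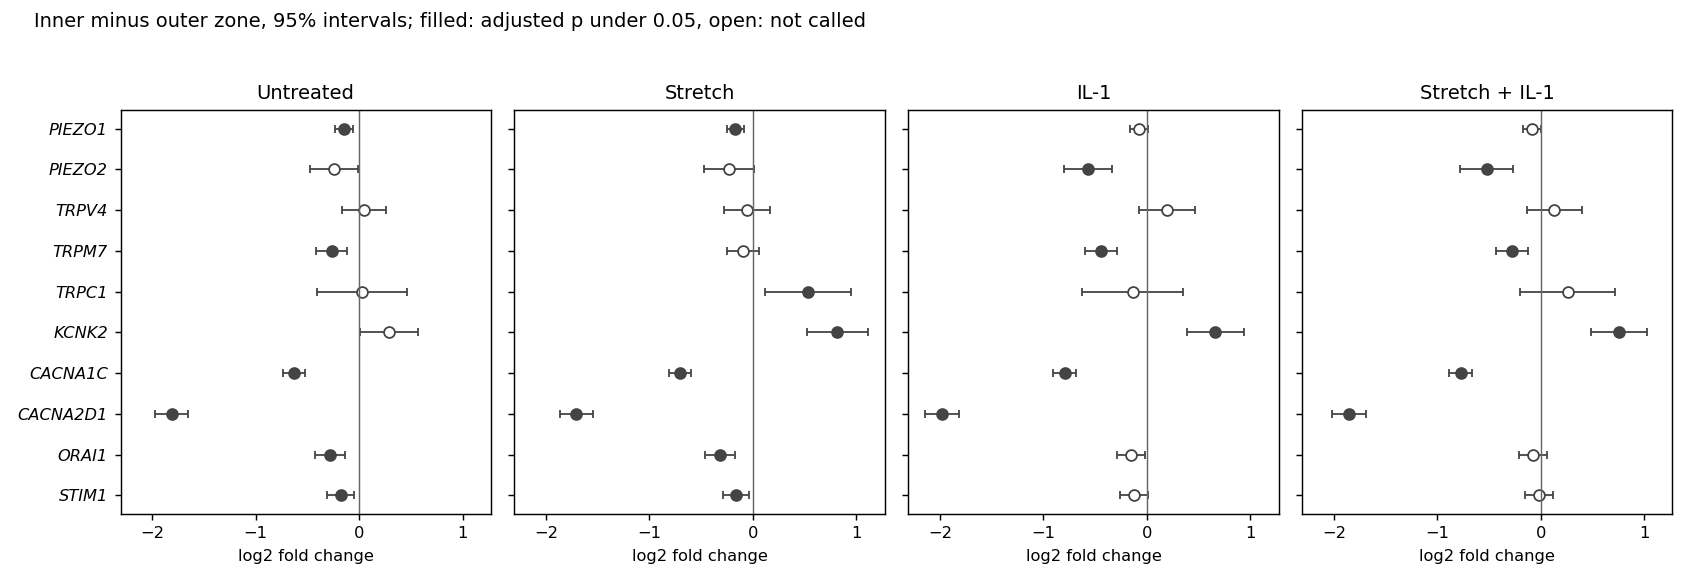
Log2 difference, inner minus outer zone cells, of each member with its 95% interval in the 4 treatments, filled where edgeR's adjusted p was under 0.05. CACNA2D1 lies between -1.98 and -1.71 and CACNA1C between -0.80 and -0.63 in the 4 treatments, and KCNK2 lies above 0.

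The genes whose levels followed a member most closely over the 24 libraries were looked up for the 3 members whose group means spanned more than 2-fold, among 9670 genes with at least 5 CPM in any group mean. For CACNA2D1 they were ABI3BP, CALHM5 and SCARA5, with Pearson correlations of 0.993, 0.991 and 0.989 of log2 CPM. For CACNA1C they were LHFPL6, ANGPTL2 and WISP2 (0.975, 0.973 and 0.973), and for KCNK2 MALT1, DSE and GSK3B (0.900, 0.888 and 0.888). The libraries share zone and treatment, so these values describe a common pattern over 8 groups and carry no test. ABI3BP stood at 2.73 CPM in untreated inner and 28.0 CPM in untreated outer zone cells.

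Among other genes of the same families, taken from lists and named where they changed most, some had larger fold changes than any member. Of 13 further TRP genes tested, IL-1 raised 3 and lowered 4 in inner zone cells, and raised 3 and lowered 3 in outer ones, where 65.4% and 64.6% of all genes changed. With stretch alone edgeR called 0 of the 13 in either zone, against 19.9% and 21.3% of all genes, with PKD2 in inner and PKD2 and TRPC4 in outer zone cells at an unadjusted p under 0.05 (both named after their values were seen). TRPC6, a receptor-operated calcium channel related to TRPC1, was at 0.422, 0.154 and 0.297 CPM in untreated inner zone libraries and at 5.56, 7.73 and 5.67 CPM with IL-1. Its rise was 4.42 on the log2 scale in inner (SE 0.25, edgeR adjusted p = 1.86e-16) and 5.30 in outer zone cells (SE 0.28, adjusted p = 1.83e-17), and with stretch in IL-1 its log2 fold changes of -0.21 and 0.11 were not called. TRPM6, which like TRPM7 joins a channel to a kinase, rose by 1.70 and 2.48 with IL-1 and fell by 0.93 and 1.14 with stretch in IL-1. TRPA1, a channel for irritants, rose by 1.90 and 2.03 and fell by 0.86 and 0.95. It had few reads, 31 in total over the 3 untreated inner zone libraries and 51 over the outer ones, and group means of at most 2.22 CPM.

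Among 21 further mechanosensitive channels and Piezo partners, IL-1 raised 10 and lowered 4 in inner zone cells, and raised 10 and lowered 3 in outer ones, shares near the 65.4% and 64.6% of all genes. With stretch alone, LRRC8C had a mean of 51.1 CPM against 21.8 CPM untreated (inner) and of 54.3 against 21.9 CPM (outer). TMEM63A went the other way, at 82.3 against 92.5 CPM (inner) and 87.0 against 96.3 CPM (outer). Both genes were picked after their values were seen and do not stand for the list. Over all genes, stretch alone changed 19.9% (inner) and 21.3% (outer). MDFI, of the MyoD family inhibitors that bind Piezo channels, was at 33.3, 32.8 and 32.2 CPM in untreated inner zone libraries, at 3.82, 4.12 and 4.73 CPM with IL-1 and at 10.8, 9.34 and 11.5 CPM with stretch and IL-1. It fell with IL-1 by 2.94 (inner) and by 3.18 (outer), and rose by 1.31 and 1.11 with stretch in IL-1. MDFIC, of the same family and at higher CPM, did not share this course. Its means were 85.2 CPM untreated and 77.6 CPM with IL-1 (inner) and 66.75 and 82.2 CPM (outer). PANX1, a channel that releases ATP, was at 15.6, 16.8 and 17.6 CPM untreated, at 48.8, 59.5 and 39.9 CPM with IL-1 and at 16.8, 16.9 and 15.0 CPM with both in inner zone cells. It rose by 1.56 and 1.12 with IL-1 and fell by 1.61 and 1.33 with stretch in IL-1, back to the range of the untreated libraries or just under it. TMEM150C followed the same course, with rises of 2.64 and 1.59 and falls of 2.07 and 1.59. It too had few reads, 29 in total over the 3 untreated inner zone libraries and 72 over the outer ones.

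KCNK9, a potassium channel of the same family as KCNK2, rose with stretch from few reads. It was at 0.422, 0.553 and 0.445 CPM in untreated inner zone libraries and at 2.31, 1.86 and 2.07 CPM with stretch, a rise of 2.13 (SE 0.23, edgeR adjusted p = 5.82e-09), and it rose by 1.62 in outer zone cells and by 2.59 and 1.78 with stretch in IL-1. The rises in IL-1 start from means of 0.129 CPM (inner, 10 reads in total) and 0.485 CPM (outer) with IL-1 alone. With stretch and IL-1 KCNK9 stood at 0.785 and 1.65 CPM, below the 2.08 and 3.64 CPM with stretch alone. Of the 5 genes of this family tested besides KCNK2, stretch alone raised 2 and lowered 1 in inner zone cells, and raised 2 in outer ones. KCNK9 is among the 5 and among those raised. Over all genes, 19.9% and 21.3% changed.

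For the voltage-gated channels, 13 further subunits were tested, of which IL-1 raised 5 and lowered 2 (inner) or raised 4 and lowered 2 (outer), against 65.4% and 64.6% of all genes, and stretch alone raised 1 in outer zone cells, against 21.3%. CACNA1A, the pore of the P/Q-type channel, rose by 0.92 and 0.86 with IL-1 and fell by 0.60 and 0.52 with stretch in IL-1, while CACNA1C fell and then rose. CACNA2D2 and CACNB1, auxiliary subunits, fell with IL-1 by 0.88 and 1.42 and by 1.0 and 1.18. Of the RGK proteins, small GTP-binding proteins that lower the current of these channels, RRAD was at 12.1, 11.6 and 10.0 CPM in untreated inner zone libraries and at 39.9, 45.4 and 43.9 CPM with stretch. RRAD rose with stretch by 1.94 (SE 0.13, edgeR adjusted p = 2.36e-09) and 2.19, and in IL-1 by 2.52 and 2.46. GEM rose with IL-1 by 0.89 and 1.59. With stretch and IL-1 its mean was 109.9 CPM against 51.9 CPM with IL-1 (inner) and 94.9 against 56.0 CPM (outer). With stretch alone it was 36.1 CPM against 28.1 CPM untreated (inner) and 31.3 against 18.6 CPM (outer). REM1 had log2 fold changes of -1.81 and -2.18 with IL-1 and rose with stretch in IL-1 by 1.04 and 0.51.

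Of 7 further genes of store-operated entry, 1 rose and 5 fell with IL-1 in each zone, where 65.4% (inner) and 64.6% (outer) of all genes changed. The gene that rose was SARAF, a factor that closes the ORAI1 and STIM1 complex again (log2 0.36 ± 0.05 SE in inner and 0.54 ± 0.05 in outer zone cells). ORAI2 and ORAI3, of the same family as ORAI1, had higher CPM than ORAI1 and stood lower with IL-1. ORAI2 had means of 81.1 CPM untreated and 62.6 CPM with IL-1 (inner) and of 79.8 and 59.7 CPM (outer). ORAI3 had means of 78.45 and 66.1 CPM (inner) and of 88.6 and 65.7 CPM (outer). STIM2, the second sensor, fell with IL-1 from 7.99 ± 0.50 to 4.99 ± 0.53 CPM in inner zone cells (mean and SD, n = 3). Of the P2X receptors, channels opened by ATP, P2RX1 had 1 read in total over the 3 untreated inner zone libraries and between 179 and 197 reads in each inner zone library with IL-1, and 2 reads in total in untreated outer zone libraries against between 133 and 189 in each with IL-1. The family did not share this course. P2RX7, the tested P2X gene with the highest CPM, had means of 20.1 CPM untreated and 19.3 CPM with IL-1 (inner) and of 23.2 and 21.3 CPM (outer). P2RX5 and P2RX6 had group means of at most 1.94 and 0.422 CPM. Among 17 genes of calcium release, pumps and exchange, IL-1 raised 7 and lowered 3 (inner) or raised 7 and lowered 2 (outer), again against 65.4% and 64.6% of all genes. ATP2A2, the pump that refills the store, had 343 ± 1.80 CPM in untreated inner zone cells and 622 ± 11.3 CPM with IL-1. Of 7 genes of mitochondrial calcium uptake, IL-1 lowered 1 (inner) or raised 1 and lowered 3 (outer), where 65.4% and 64.6% of all genes changed. MCU, the pore, fell in both (log2 -0.29 and -0.39), and MCUR1 fell in outer zone cells (log2 -0.22, edgeR adjusted p = 0.0158).

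**Figure D5:**
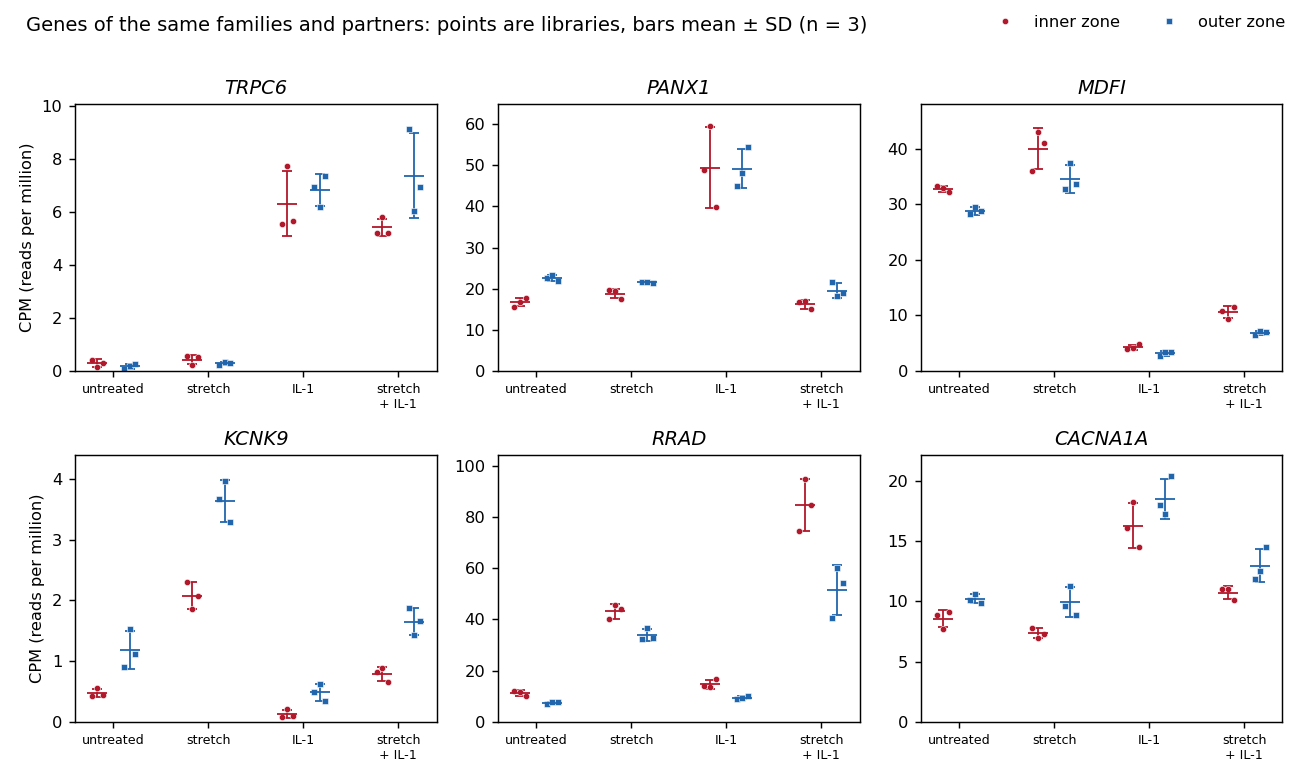
CPM of TRPC6, PANX1, MDFI, KCNK9, RRAD and CACNA1A in each library by treatment, with inner zone libraries as circles and outer zone libraries as squares and with bars for the mean and 1 SD of 3 libraries, on axes that start at 0. TRPC6 and PANX1 stand higher and MDFI lower with IL-1, PANX1 stands near its untreated level with stretch and IL-1, and KCNK9 and RRAD stand higher with stretch.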

How the data were processed

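RNA of 24 wells of porcine meniscus cells (8 groups of 3) was sequenced with a stranded mRNA kit. The deposited values are raw read counts per gene. According to the methods, the authors trimmed reads with Trim Galore and cutadapt, aligned them with STAR to Sscrofa11.1, kept unique alignments and counted with HTSeq; tool versions and the strand setting of counting are not given in the sources used here. The deposited normalized table was not used.

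Genes with 10 or more reads in any library were tested with edgeR 4.0.16 (R 4.3.3): TMM factors, 1 mean per group over all 24 libraries, the robust quasi-likelihood test, and Benjamini-Hochberg adjustment over all tested genes, with calls at an adjusted p under 0.05. CPM used the same factors. Totals of 25377054 to 35284474 reads and a common biological coefficient of variation of 0.0472 set the precision. No replicate pair agreed within sampling noise (chi-square per degree of freedom of 2.43 or more). Comparisons were IL-1, stretch, stretch in IL-1 and their interaction per zone, inner minus outer per treatment, and zone differences of effects, 15 in all. Steps were tested on simulated data. Alternatives were DESeq2 and upper-quartile factors, other filters, DESeq2 1.42.0, fewer libraries, a replicate block and leaving out each library. Gene locations, exon lengths and upstream sequences came from RefSeq on Sscrofa11.1.

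The members and lists were chosen with earlier results of these data known, and the promoters to show, the bases shown and the place of PIEZO2 after values were seen. Of each family list, at most the 3 genes with the largest change are named, at 2 CPM or more in any group mean. LRRC8C and TMEM63A were added after their values were seen, for their levels with stretch alone. ORAI2, ORAI3, MDFIC and the P2X genes besides P2RX1 were also added after their values were seen. For members whose group means spanned over 1 on the log2 scale, the 3 most correlated genes are named.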

Additional observations from a re-analysis of the deposited data

Results flagged for a closer look

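The effect of stretch differed with and without IL-1 for PIEZO1 and CACNA1C, by edgeR's test of the interaction. For PIEZO1 the stretch effect with IL-1 minus that without was -0.22 on the log2 scale in inner zone cells and -0.23 in outer zone cells. For CACNA1C it was 0.25 in inner zone cells, and this call was lost when any of 3 single libraries was left out.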

How the results depend on the processing

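Of 2149 member values recomputed under an alternative, 1971 kept direction and side of the threshold, 42 lost their call, 18 gained one and 118 changed sign. Those that changed sign had not been called, and of them only STIM1 with IL-1 under upper-quartile factors in inner zone cells was called afterwards. Under upper-quartile factors the sign changed for PIEZO2 in IL-1 unstretched inner zone cells (-0.13), CACNA2D1 in IL-1 unstretched inner zone cells (-0.11), STIM1 in IL-1 unstretched inner zone cells (-0.17), KCNK2 in IL-1 unstretched outer zone cells (-0.0407), STIM1 in stretch alone inner zone cells (0.0044), PIEZO1 in stretch in IL-1 inner zone cells (0.0012), PIEZO1 in stretch in IL-1 outer zone cells (0.0154), TRPC1 in stretch in IL-1 outer zone cells (0.0226), ORAI1 in stretch in IL-1 outer zone cells (0.0258), CACNA2D1 in stretch by IL-1 interaction outer zone cells (0.0279), STIM1 in stretch by IL-1 interaction outer zone cells (0.0065). With no filter on low counts the sign changed for STIM1 in IL-1 unstretched inner zone cells (-0.011), KCNK2 in stretch in IL-1 outer zone cells (-0.0048). With DESeq2 size factors the sign changed for TRPV4 in stretch in IL-1 outer zone cells (-0.0007), KCNK2 in stretch in IL-1 outer zone cells (-0.0095). By the Wald test of DESeq2 the sign changed for TRPV4 in stretch in IL-1 outer zone cells (-0.0014), KCNK2 in stretch in IL-1 outer zone cells (-0.0082). With only the 12 libraries of the zone the sign changed for STIM1 in stretch alone inner zone cells (0.0046), TRPV4 in stretch in IL-1 outer zone cells (-0.0004), KCNK2 in stretch in IL-1 outer zone cells (-0.0087), CACNA2D1 in stretch by IL-1 interaction inner zone cells (-0.0083), ORAI1 in stretch by IL-1 interaction inner zone cells (-0.0091). With the replicate block, fitted per zone, the sign changed for STIM1 in stretch alone inner zone cells (0.0049), TRPV4 in stretch in IL-1 outer zone cells (-0.0007), KCNK2 in stretch in IL-1 outer zone cells (-0.0085), CACNA2D1 in stretch by IL-1 interaction inner zone cells (-0.0056), ORAI1 in stretch by IL-1 interaction inner zone cells (-0.0065). Leaving out 1 library at a time gave these log2 ranges where the sign changed. For IL-1 unstretched inner zone cells they were PIEZO2 -0.0227 to 0.18, CACNA2D1 -0.0238 to 0.13, STIM1 -0.0483 to 0.0683. For IL-1 unstretched outer zone cells they were TRPC1 -0.29 to 0.0298, STIM1 -0.11 to 0.0274. For stretch alone inner zone cells they were KCNK2 -0.14 to 0.0277, CACNA2D1 -0.0267 to 0.11, STIM1 -0.0445 to 0.0354. For stretch alone outer zone cells they were STIM1 -0.0682 to 0.0104. For stretch in IL-1 inner zone cells they were TRPV4 -0.14 to 0.033, KCNK2 -0.005 to 0.18, CACNA2D1 -0.0004 to 0.16, ORAI1 -0.0163 to 0.0899, STIM1 -0.0003 to 0.12. For stretch in IL-1 outer zone cells they were PIEZO1 -0.072 to 0.0121, TRPV4 -0.11 to 0.12, TRPC1 -0.18 to 0.0934, KCNK2 -0.10 to 0.11, CACNA2D1 -0.12 to 0.0474, ORAI1 -0.0874 to 0.0619, STIM1 -0.12 to 0.0178. For stretch by IL-1 interaction inner zone cells they were TRPC1 -0.13 to 0.26, CACNA2D1 -0.0643 to 0.0939, ORAI1 -0.0651 to 0.0426. For stretch by IL-1 interaction outer zone cells they were TRPM7 -0.0048 to 0.18, CACNA2D1 -0.083 to 0.0866, STIM1 -0.10 to 0.0335. For inner minus outer untreated they were TRPV4 -0.0323 to 0.11, TRPC1 -0.13 to 0.19. For inner minus outer stretch they were TRPV4 -0.15 to 0.0858. For zone difference in the IL-1 effect they were STIM1 -0.0157 to 0.12. For zone difference in the stretch effect they were PIEZO1 -0.0442 to 0.0154, PIEZO2 -0.0525 to 0.0765, TRPV4 -0.20 to 0.0383, STIM1 -0.0288 to 0.0642. For zone difference in the stretch effect in IL-1 they were PIEZO1 -0.06 to 0.0242, PIEZO2 -0.0891 to 0.15, TRPV4 -0.18 to 0.0569, KCNK2 -0.0144 to 0.19, CACNA1C -0.0658 to 0.0927, ORAI1 -0.0098 to 0.14. The number of members changed with stretch alone in inner zone cells was 2 with no filter, with only the 12 libraries of the zone and with the replicate block, against 1. With stretch in IL-1 in outer zone cells it was 1 with upper-quartile factors, no filter, the 12 libraries and the replicate block, against 2, and leaving out libraries gave 1 to 2 there and 0 to 1 in inner zone cells. For the interaction it was 1 in inner zone cells with the 12 libraries and the replicate block, against 2, with 1 to 2 over left-out libraries, and 2 in outer zone cells with upper-quartile factors, against 1, also 1 to 2. Between the zones left-out libraries gave 5 to 6 members with stretch, against 7, and 4 to 7 with IL-1, against 4, and for the zone difference in the IL-1 effect 0 to 1. Of all genes, 50 were called for the zone difference in the stretch effect, against 77 with no filter and 116 by the Wald test of DESeq2. The cause of these differences was not tested. The replicate numbers come from the sample titles, where their meaning is not given. Same-numbered libraries of a zone had correlations of their deviations from -0.249 to 0.335 in inner and -0.219 to 0.295 in outer zone cells. Libraries of unlike number had -0.306 to 0.281 and -0.351 to 0.311, and 9 of 24 libraries correlated best with their own number, so no clear sign of pairing was seen. The comparisons between zones had no block, since the zones share no replicate number. For them the restriction to fewer libraries used the 6 of the treatment compared. Low counts limit TRPC1, with 27 to 82 reads per library, and PIEZO2 and KCNK2.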
